A study of Homo sapiens with 8 samples.

Results

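The interferon regulatory factors (IRFs) were followed in A498, a cell line derived from clear cell kidney cancer (ccRCC), before and after exposure to interleukin-1β (IL1β). The members were taken by gene symbol within the range IRF1 to IRF9 of the deposited count table, and 8 of its 59023 genes are described: IRF1, IRF2, IRF3, IRF4, IRF5, IRF7, IRF8 and IRF9. Of the 8 libraries, 4 came from untreated A498 cells (replicates 1 to 4) and 4 from A498 cells given 30 ng/ml IL1β for 4 h (replicates 5 to 8). Both groups were the same line in the same serum-containing medium, with no other agent or genetic change named in the labels, so the comparison describes 1 tumour line at 1 dose and 1 time. The study's methods describe the treated and untreated cells as experimental pairs, but the labels do not say which untreated library belongs with which IL1β library, so the tests are unpaired and their p-values measure the spread between the libraries of a group. The comparison asked which members changed in mRNA level after IL1β, and how the genes upstream and downstream of them were placed in the same libraries.

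IRFs are transcription factors that share a tryptophan-rich DNA-binding domain and recognise a GAAA-type core in interferon-stimulated response elements. IRF3 and IRF7 are held in the cytoplasm until the kinases TBK1 and IKKε phosphorylate them downstream of nucleic acid sensors, and then drive type I and type III interferon genes. IRF9 joins STAT proteins in the complex that answers type I interferon, IRF1 is itself inducible through NF-kB and by interferons, and IRF2 binds many of the same elements as IRF1, often as its antagonist. IL1β signals through MyD88, IRAK kinases and TRAF6 to NF-kB and MAP kinases. These steps act largely on protein, while the measurements here are of mRNA.

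Levels are CPM (a gene's counts per 1000000 counts of its library) scaled by trimmed-mean (TMM) factors, and the library totals were 16610473 to 27040505 counts for untreated cells and 15409093 to 24000727 for IL1β, so that 1 count equals 0.0367 to 0.0735 CPM. In a principal component analysis, the first component (42.7% of the variance) placed untreated 1 at -59.5 and IL1β 5 at -102, against 18.8 to 37.2 for the other 6 libraries. Both stand apart, and results that rest on them are given with and without them. On the second component untreated 4 lay at 5.25, away from the other untreated libraries (-47.7 to -37.5). Of the 11 renal and epithelial markers 11 passed the filter, with a summed level of 6157 to 7305 CPM over the 8 libraries. The largest part of that sum was VIM (mean 3900 CPM in untreated and 4178 CPM in IL1β libraries). Other members were low, among them CA9 (means 1.82 and 1.85 CPM) and PAX2 (8.11 and 9.11 CPM). CDH6 went down to 1.40 CPM in an IL1β library. PAX8, a renal lineage factor, was higher after IL1β (log2 fold change 1.50, edgeR adjusted p = 0.0239). Of 14 leukocyte markers 2 passed the low-count filter, ITGAM (means 1.07 CPM in untreated and 2.19 CPM in IL1β libraries) and CORO1A (2.60 and 3.28 CPM). The T cell gene CD3E and the B cell gene MS4A1 had 0 counts in all libraries. The summed level was 4.43 to 24.3 CPM in untreated and 5.51 to 14.1 CPM in IL1β libraries. The highest sum was that of untreated 1, and most of it was LYZ (19.5 CPM), which did not pass the filter. The 9 endothelial and fibroblast markers summed to 1183 CPM in untreated 4 and 431 CPM in IL1β 6, against 47.1 to 140 CPM in the other 6 libraries. The collagen COL1A1 (680 CPM) and the fibroblast genes COL1A2, DCN, LUM and PDGFRB were all highest in untreated 4, and none of these 5, the members that were tested, rose or fell. The endothelial genes did not follow them. PECAM1 (1.03 CPM), VWF (0.697 CPM) and KDR (0.550 CPM) were highest in untreated 1, and CDH5 (0.538 CPM) in IL1β 8. The part of these markers in the results below was not tested.

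Of the 8 members, 5 passed the low-count filter and were tested by edgeR's quasi-likelihood test with Benjamini-Hochberg adjustment over 15062 genes, at a threshold of 0.05. IRF1 and IRF7 rose, by 4.13-fold and 3.42-fold, and no member fell. That is 2 of 5 members tested, against 0.929% of all tested genes that rose and 0.0598% that fell. At an unadjusted p under 0.05, 3 of the 5 members were higher (6.23% of all genes) and 0 were lower (4.55% of all genes). IRF2 was higher in each IL1β library than in any untreated one without passing the threshold, and IRF3 and IRF5 overlapped between the groups. For 3 of the 5 members the groups did not overlap, with IL1β higher, against 4.60% of all tested genes, and for 0 with IL1β lower, against 3.41%. IRF4, IRF8 and IRF9 had too few counts for the test. The median log2 fold change of the 5 members was 0.85, beside -0.02 over all genes tested.

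**Figure D1:**
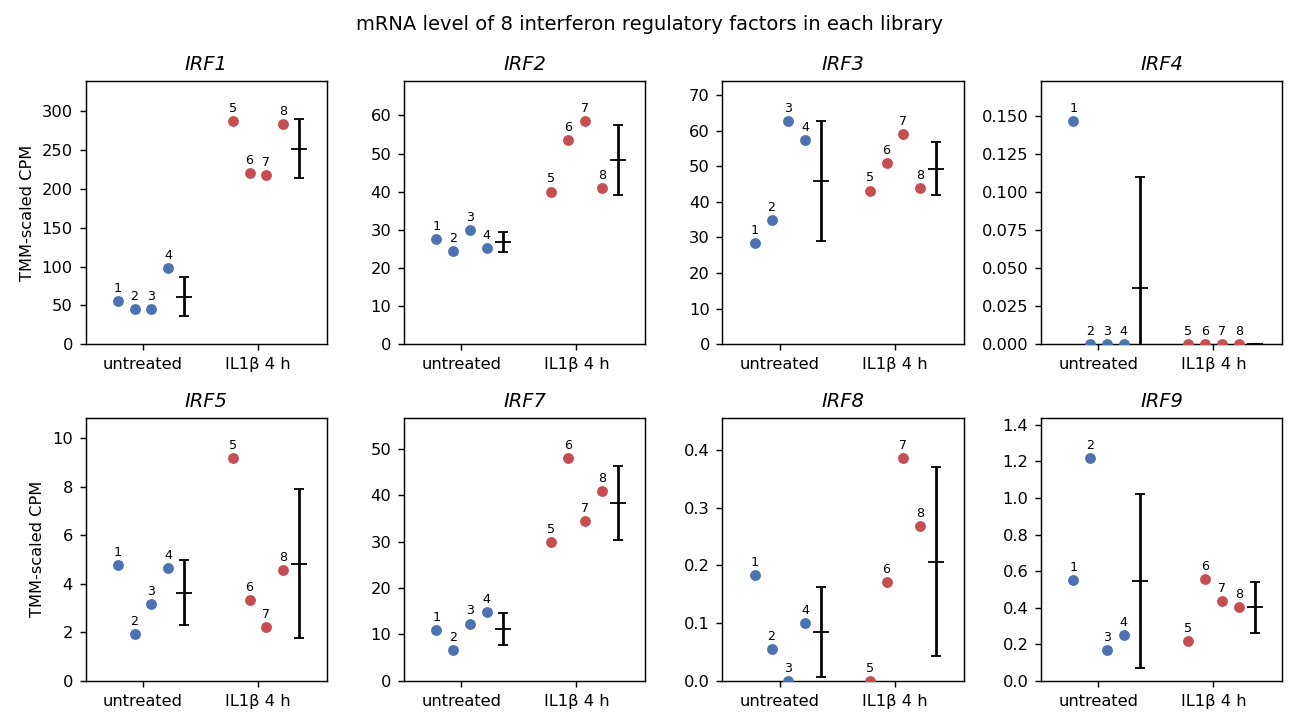
TMM-scaled CPM (vertical axes, each panel on its own scale from 0) of the 8 members in each library, with replicate numbers beside the points and the group mean and SD in black. IRF1, IRF2 and IRF7 separate the groups, whereas IRF3, IRF4, IRF5, IRF8 and IRF9 overlap.

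IRF1 is the inducible activator of the family, a factor for antigen presentation, chemokine and guanylate-binding protein genes. The gene (ENSG00000125347) lies on the minus strand of chr5:132440440-132508719 (hg38, GENCODE 44). Its level was 56.0, 45.1, 44.9 and 97.9 CPM in untreated 1 to 4, and 287, 220, 218 and 283 CPM in IL1β 5 to 8. Each IL1β library was above each untreated one, and untreated 4, the library with the highest fibroblast markers, stood above the other 3 of its group. The mean was 61.0 ± 25.1 CPM in untreated and 252 ± 38.4 CPM in IL1β libraries (SD, n = 4 each), and the log2 fold change was 2.05 (SE 0.28, 95% interval 1.42 to 2.67, edgeR adjusted p = 0.0115). Among the 15062 genes, 142 had a larger log2 fold change and 36 a smaller p. In rank, IRF1 moved from above 76.5% of the tested genes to above 94.8% of them by mean CPM. Without untreated 1 and IL1β 5 the log2 fold change was 1.96 (edgeR adjusted p = 0.0149). Leaving out IL1β 8 took the adjusted p to 0.0503, while leaving out any other single library kept the call.

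The IRF1 promoter is shown because IRF1 had the largest log2 fold change of the members and its window holds letters of motifs for both NF-kB and STAT factors. The sequence is from RefSeq (GRCh38.p14, minus strand, chr5:132490724-132491023), with 250 bases before the transcription start and 50 from it on. Capitals mark a match to the interferon-γ activated site, GAS (TTCNNNGAA), at -124 to -116 and a match to the NF-kB consensus at -50 to -41.
IRF1 promoter: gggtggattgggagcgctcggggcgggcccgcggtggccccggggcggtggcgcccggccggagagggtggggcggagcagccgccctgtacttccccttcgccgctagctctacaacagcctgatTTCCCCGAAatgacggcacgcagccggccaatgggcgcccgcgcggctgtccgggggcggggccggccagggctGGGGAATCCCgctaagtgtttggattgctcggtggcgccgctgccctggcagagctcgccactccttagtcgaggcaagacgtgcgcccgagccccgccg
Both strands were searched, and the 2 matches do not overlap. Among 35116 RefSeq promoters of the same length, 11.3% held the NF-kB motif, 7.66% the GAS motif and 0.683% held both. RefSeq windows were matched for 5 of the 8 members (9 windows: IRF1, IRF4, IRF5, IRF8 and IRF9), and the NF-kB motif was found in the window of IRF1 alone among these. The window of IRF9 held a GAS match (TTCTGGGAA, -63 to -55) and a match to the IRF core AANNGAAA (AACTGAAA, -35 to -28), the latter motif being found in 22.8% of all promoters. An IRF core match was also found in both windows of IRF8 and in 1 of 4 windows of IRF5. The AP-1 motif TGANTCA, present in 7.71% of promoters, was found in none of the 9 windows. These matches are descriptions of letters, not binding sites.

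An antisense transcript, IRF1-AS1 (C5orf56 in the count table), overlaps IRF1 on the other strand and shares 16.3% of the canonical IRF1 transcript. It was at 3.19, 2.99, 3.07 and 3.89 CPM in untreated 1 to 4 and at 5.73, 7.21, 6.90 and 7.93 CPM in IL1β 5 to 8. Its groups did not overlap, and its log2 fold change of 1.08 (SE 0.23) missed the threshold (edgeR adjusted p = 0.0643). The libraries were made with a stranded kit, but the strand setting of the counting is not given in the sources used here, so reads of this pair cannot be assigned with certainty. The antisense level was far below that of IRF1 in each library.

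IRF7, the amplifier of type I interferon transcription, is encoded on the minus strand of chr11:612553-615983 (ENSG00000185507). Untreated 1 to 4 had 10.9, 6.65, 12.4 and 14.8 CPM, and IL1β 5 to 8 had 29.8, 48.0, 34.5 and 40.8 CPM. The groups were clear of each other, and IL1β 5 was the lowest of the treated libraries. The means were 11.2 ± 3.43 and 38.3 ± 7.89 CPM (SD, n = 4 each), and the log2 fold change was 1.77 (SE 0.27, 95% interval 1.17 to 2.37, edgeR adjusted p = 0.0189). Without untreated 1 and IL1β 5 it was 1.88 (edgeR adjusted p = 0.0129). The call was lost when untreated 3, IL1β 6, IL1β 7 or IL1β 8 was left out (edgeR adjusted p = 0.0540 to 0.0717). No annotated gene shares exons with IRF7.

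IRF2, on the minus strand of chr4:184385702-184474558 (ENSG00000168310), is the constitutive relative of IRF1. Its level was 27.7, 24.4, 30.0 and 25.1 CPM in untreated 1 to 4 and 40.0, 53.6, 58.5 and 40.9 CPM in IL1β 5 to 8. The untreated libraries were close together and each IL1β library was above them, those numbered 5 and 8 least. The means were 26.8 ± 2.56 and 48.2 ± 9.22 CPM, and the log2 fold change of 0.85 (SE 0.18, 95% interval 0.44 to 1.25) had an edgeR adjusted p = 0.0692. By exact permutation of the library labels (two-sided), IRF2 had p = 0.0286, the smallest that 4 against 4 allows. The call depended on the setting: IRF2 passed in DESeq2 (adjusted p = 0.00255), without IL1β 5 (edgeR adjusted p = 0.0396) and without both untreated 1 and IL1β 5 (log2 fold change 0.96, edgeR adjusted p = 0.0281).

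IRF3, the latent factor of the antiviral response, lies on the minus strand of chr19:49659569-49665875 (ENSG00000126456). It was at 28.4, 34.8, 62.7 and 57.5 CPM in untreated 1 to 4 and at 43.2, 50.9, 59.2 and 44.0 CPM in IL1β 5 to 8. The untreated libraries spread more widely than the treated ones and enclosed all of them. The log2 fold change was 0.11 (SE 0.27, edgeR adjusted p = 0.942), and its 95% interval of -0.49 to 0.70 leaves room for a change of that size in either direction. BCL2L12, an apoptosis-related gene on the other strand, shares 14.2% of the canonical IRF3 transcript. BCL2L12 was at 6.16, 14.5, 31.6 and 26.4 CPM in untreated 1 to 4 and at 12.5, 25.7, 31.7 and 20.0 CPM in IL1β 5 to 8, low in untreated 1 and 2 where IRF3 was also low.

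IRF5, a mediator of Toll-like receptor signaling through MyD88 in myeloid cells, lies on the plus strand of chr7:128937457-128950038 (ENSG00000128604). It had 4.77, 1.94, 3.15 and 4.63 CPM in untreated 1 to 4, and 9.18, 3.35, 2.22 and 4.57 CPM in IL1β 5 to 8. IL1β 5 was the highest of all libraries and the other 3 treated libraries lay within the untreated range. The log2 fold change was 0.40 (SE 0.47, 95% interval -0.64 to 1.45, edgeR adjusted p = 0.826). Leaving out IL1β 5 turned it to -0.11.

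The 3 members without a test were near the lower limit of the data. IRF4, a factor of lymphocytes and plasma cells (chr6:391739-411443, plus strand, ENSG00000137265), had 4 counts, all in untreated 1 (0.147 CPM). In the 4 IL1β libraries together it had 0 of 76200464 counts, which allows a level of up to 0.0394 CPM (3 counts, a limit that covers counting error only). IRF8, a myeloid and B cell factor (chr16:85899116-85922606, plus strand, ENSG00000140968), had 5, 1, 0 and 2 counts in untreated 1 to 4 and 0, 4, 8 and 4 counts in IL1β 5 to 8. The groups overlapped, at 0.0846 ± 0.0775 and 0.207 ± 0.163 CPM (exact permutation p = 0.286, n = 4 each).

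IRF9, the DNA-binding subunit of the interferon-stimulated gene factor, lies on the plus strand of chr14:24161234-24168043 (ENSG00000213928). It had 15, 22, 4 and 5 counts in untreated 1 to 4 and 3, 13, 9 and 6 counts in IL1β 5 to 8. The means were 0.547 ± 0.478 and 0.404 ± 0.139 CPM, with overlapping groups (exact permutation p = 0.743, n = 4 each). This level is uncertain. In GENCODE 44 the protein-coding gene ENSG00000259529 (chr14:24147548-24166452, same strand) covers 93.1% of the canonical IRF9 transcript and 98.6% of that of its neighbour RNF31, a ubiquitin ligase subunit. RNF31 was also very low, at 0 to 6 counts in a library. How reads falling in overlapping genes were counted is not given in the sources used here, and the low value of IRF9 cannot be told apart from reads left out for that reason.

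**Figure D2:**
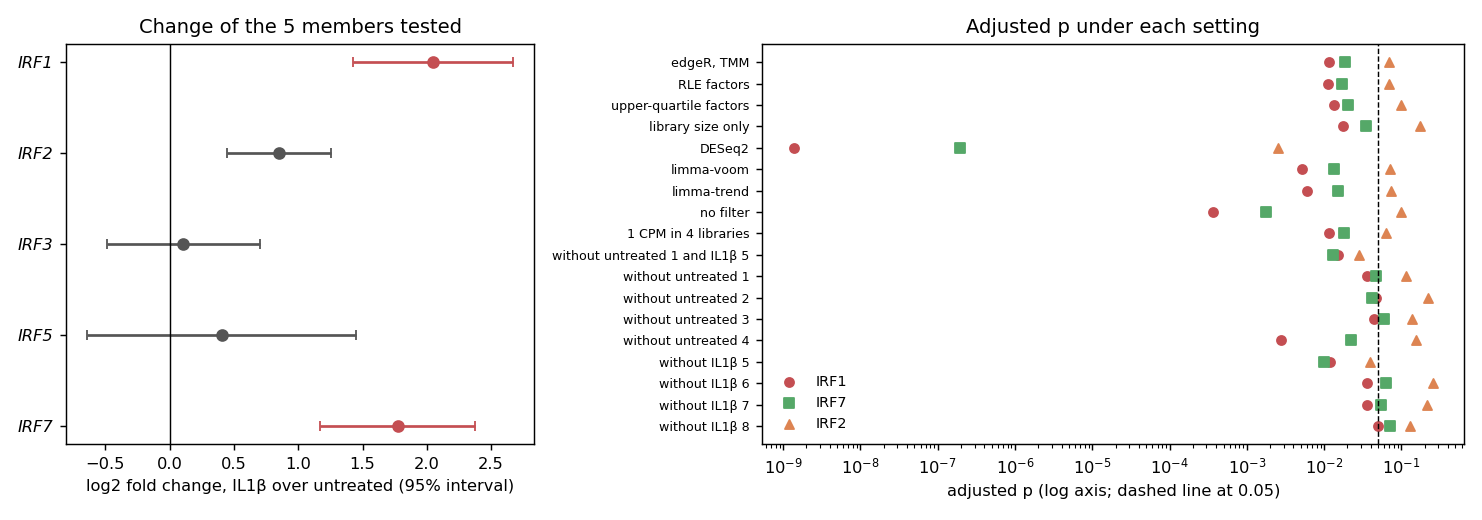
Left, log2 fold change (IL1β over untreated) of the 5 members tested with 95% intervals, in red where the adjusted p was under 0.05. Right, adjusted p (log axis) of IRF1, IRF7 and IRF2 under each setting, with a dashed line at 0.05. IRF1 crosses the line in 1 setting, and IRF7 in 4.

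To compare members with each other, CPM was divided by the length in kb of the canonical transcript. In untreated cells the order of this length-scaled level was IRF3 (28.7 ± 10.5), IRF1 (17.2 ± 7.08), IRF2 (11.9 ± 1.13), IRF7 (5.82 ± 1.79), IRF5 (1.25 ± 0.462), IRF9 (0.336 ± 0.294), IRF8 (0.0317 ± 0.0290) and IRF4 (0.00690 ± 0.0138 CPM per kb, SD, n = 4). The ranges of IRF3 and IRF1, of IRF1 and IRF2, of IRF5 and IRF9, and of IRF8 and IRF4 overlapped, while those of IRF2 and IRF7, of IRF7 and IRF5, and of IRF9 and IRF8 did not. After IL1β the order was IRF1 (70.9 ± 10.8), IRF3 (30.9 ± 4.66), IRF2 (21.4 ± 4.09), IRF7 (19.9 ± 4.10) and IRF5 (1.67 ± 1.05 CPM per kb), with IRF9, IRF8 and IRF4 again at the end. Among these, the ranges of IRF2 and IRF7 overlapped, those of IRF9 and IRF8 did too, and IRF1 was clear of IRF3 in all 4 libraries. The place of IRF9 in these orders, and its part in the sum used next, rest on the uncertain count given above. As a share of the summed length-scaled level of the 8 members, IRF1 was 26.2% (17.3% to 32.7%) in untreated and 48.8% (42.7% to 55.9%) in IL1β libraries. The share of IRF3 was 43.3% (33.2% to 53.9%) in untreated and 21.3% (18.6% to 25.9%) in IL1β libraries, although its own level did not pass the test. IRF7 was 8.87% and 13.7% of the sum, and IRF2 19.0% and 14.8%.

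**Figure D3:**
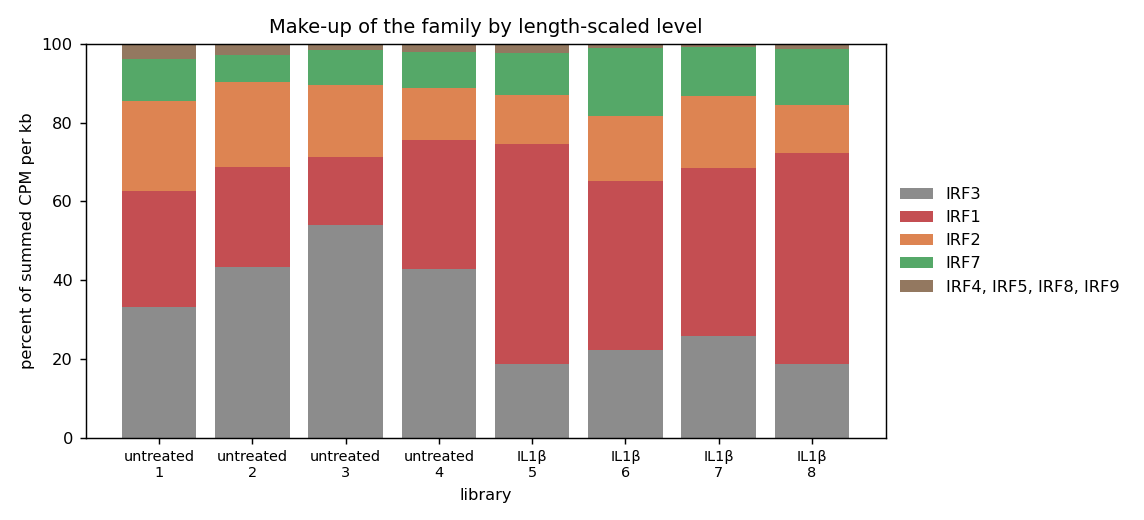
Percent of the summed CPM per kb of the 8 members (vertical axis, 0 to 100) taken by each member in each library. IRF3 took the largest share in untreated libraries (33.2% to 53.9%), and IRF1 in IL1β libraries (42.7% to 55.9%). The sum uses the uncertain count of IRF9.

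IRF1 and IRF2 compete for the same elements, so their ratio was formed within each library. The IRF1 to IRF2 ratio of CPM was 2.03, 1.85, 1.49 and 3.90 in untreated 1 to 4 and 7.17, 4.10, 3.72 and 6.93 in IL1β 5 to 8. Untreated 4 lay above IL1β 7, so the groups overlapped. The log2 ratio was 1.11 ± 0.60 and 2.39 ± 0.50, a difference of 1.28 (unpaired exact permutation test, two-sided, p = 0.0571). Without untreated 4 the difference was 1.56 (exact permutation p = 0.0286). Untreated 4 is the library that made the groups overlap, so leaving it out fixes p at the smallest value possible. With any other single library left out, the exact permutation p was 0.0571 to 0.0857. The ratio of IRF7 to IRF3, chosen after seeing the data, was 0.385, 0.191, 0.197 and 0.258 in untreated 1 to 4 and 0.690, 0.944, 0.582 and 0.927 in IL1β 5 to 8. These groups did not overlap (log2 difference 1.64, exact permutation p = 0.0286, or 0.0571 after Benjamini-Hochberg adjustment over the 2 ratios).

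The genes whose pattern over the 8 libraries lay nearest that of IRF1, by the root mean square difference of centred log2 CPM, were SLC2A6 (0.184), SLC12A7 (0.202), MAN1A1 (0.210), SLC37A1 (0.216) and MFSD2A (0.228), beside a median of 1.19 over the other genes. Of these, 4 encode membrane transporters and MAN1A1 encodes a Golgi mannosidase, and their log2 fold changes were 1.88 to 2.23. For IRF7 the nearest were DHX58 (0.248), SMOX (0.251), JUP (0.252), IL15RA (0.290) and RTN4RL2 (0.298), beside a median of 1.06. DHX58 is a cytosolic RNA sensor and IL15RA the receptor chain that presents IL15, and the log2 fold changes of these 5 genes were 1.36 to 1.94.

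Upstream of the family, 19 sensors, adaptors and kinases that activate IRFs were tested, of which 2 rose and none fell, with a median log2 fold change of 0.45. Over all tested genes 0.929% rose, which stands beside the counts of this list and the others given next. In these lists 0 genes fell in edgeR, DESeq2 or limma. At an unadjusted p under 0.05, 0 were lower, against 4.55% of all tested genes. TICAM1, the adaptor of TLR3 and TLR4 that leads to IRF3, went from 22.8 ± 4.30 to 60.5 ± 4.11 CPM (log2 fold change 1.41, SE 0.18, edgeR adjusted p = 0.00828), and kept its call with each library left out. DHX58 went from 12.3 ± 3.48 to 31.6 ± 1.84 CPM (1.36, SE 0.23, edgeR adjusted p = 0.0284), a call lost without untreated 1, untreated 3, IL1β 6, IL1β 7 or IL1β 8. The kinase TBK1 was at 40.8 ± 1.94 and 42.2 ± 6.87 CPM, a log2 fold change of 0.05 (SE 0.16). Its relative IKBKE, which encodes IKKε, was at 9.61, 13.4, 18.6 and 27.9 CPM in untreated 1 to 4 and at 25.2, 38.1, 41.5 and 38.6 CPM in IL1β 5 to 8, with untreated 4 above IL1β 5 (edgeR adjusted p = 0.229). The most abundant members that did not pass were IRAK1, a kinase of the IL1 receptor pathway (305 ± 72.6 and 369 ± 110 CPM), and RIGI, a cytosolic RNA sensor (DDX58 in the table, 51.7 ± 16.0 and 261 ± 133 CPM, edgeR adjusted p = 0.0570). Without IL1β 5, 5 of these genes rose, beside 218 of 15471 genes in all, and 6 rose without untreated 1 as well, beside 378 of 15127. Leaving out untreated 1, untreated 3, IL1β 6, IL1β 7 or IL1β 8 left 1, beside 38 to 107 genes in all.

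Of 15 interferon and interferon receptor genes, the 5 that passed the filter were all receptor chains. Their groups did not overlap, with IL1β higher in each, against 4.60% of all tested genes. Of these chains 2 rose, and the median log2 fold change was 1.14. IFNGR1, the ligand-binding chain of the interferon-γ receptor, went from 54.7 ± 10.6 to 158 ± 17.2 CPM (1.53, SE 0.19, edgeR adjusted p = 0.00828) and kept its call with each library left out. IFNAR2, a chain of the type I receptor, went from 29.9 ± 11.6 to 80.9 ± 9.88 CPM (1.44, SE 0.27, edgeR adjusted p = 0.0469). That call held with untreated 4 left out and was lost with any other single library left out (edgeR adjusted p up to 0.130). Its partner IFNAR1 had a log2 fold change of 0.59 (edgeR adjusted p = 0.183), and IFNGR2 one of 1.13 (edgeR adjusted p = 0.124).

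The interferon ligands were scarce. IFNB1, a target of IRF3 and IRF7, had 0, 6, 1 and 0 counts in untreated 1 to 4 and 0, 9, 8 and 12 counts in IL1β 5 to 8. IFNL1, the type III ligand, had 0, 0, 3 and 0 counts in untreated 1 to 4 and 2, 44, 11 and 17 counts in IL1β 5 to 8. For IFNL1 the CPM groups did not overlap, and IL1β 5 was barely above the highest untreated library. The 0 counts of IFNB1 in IL1β 5 allow a level of up to 0.220 CPM there, against 0.386, 0.386 and 0.807 CPM in IL1β 6 to 8. IFNG had 0 counts in all libraries, which allows up to 0.0353 CPM over the untreated and 0.0394 CPM over the IL1β group.

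Of the 10 JAK and STAT genes tested by edgeR 0 rose, with a median log2 fold change of 0.39. At an unadjusted p under 0.05, 3 were higher, and 1 rose in DESeq2 and in limma-voom. STAT2, a partner of IRF9, was at 31.1, 32.6, 47.3 and 41.2 CPM in untreated 1 to 4 and at 30.5, 94.2, 82.2 and 71.7 CPM in IL1β 5 to 8. For STAT2, IL1β 5 was the lowest of all 8 libraries and the other 3 treated libraries were above all untreated ones. The log2 fold change of STAT2 was 0.87 (SE 0.32, edgeR adjusted p = 0.334), and it passed without IL1β 5 (edgeR adjusted p = 0.0271). JAK1, the most abundant kinase of the list, was at 320 ± 42.5 and 399 ± 127 CPM.

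Among 13 partners and regulators of IRF proteins tested, 1 rose and none fell, with a median log2 fold change of 0.41. It was TRIM21, a ubiquitin ligase that acts on IRF proteins, which went from 26.4 ± 6.85 to 71.1 ± 7.11 CPM (1.43, SE 0.21, edgeR adjusted p = 0.0168). The call was lost without untreated 2, IL1β 6, IL1β 7 or IL1β 8. IRF2BP2, a corepressor that binds IRF2, was at 154 ± 26.0 and 203 ± 26.1 CPM (edgeR adjusted p = 0.467). TCF3, an E protein that works with IRF4 and IRF8 in B cells, was at 84.5 ± 33.1 and 88.5 ± 18.5 CPM. In the fit without IL1β 5, 3 genes of this list rose, beside 218 of 15471 genes in all.

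The 9 NF-kB subunits and inhibitors had a median log2 fold change of 1.23. Of these 1 rose, and for 7 of 9 the groups did not overlap with IL1β higher, against 4.60% of all tested genes. RELA, the main transactivating subunit, was at 60.6, 45.0, 50.6 and 59.5 CPM in untreated 1 to 4 and at 128, 100, 88.0 and 109 CPM in IL1β 5 to 8 (log2 fold change 0.98, SE 0.18, edgeR adjusted p = 0.0385). Its call held with IL1β 5 left out and was lost with any other library left out. NFKB1 (102 ± 46.1 and 268 ± 77.2 CPM, edgeR adjusted p = 0.121), NFKBIA (63.9 ± 33.4 and 219 ± 81.9 CPM, edgeR adjusted p = 0.0902) and REL (5.40 ± 0.756 and 7.69 ± 4.07 CPM, edgeR adjusted p = 0.724) did not pass. Nor did the most abundant of the rest, NFKB2 (149 ± 78.4 and 392 ± 29.4 CPM) and the inhibitor TNFAIP3 (58.1 ± 42.3 and 353 ± 82.6 CPM). Without untreated 4, 4 genes of the list rose, beside 122 of 15424 genes in all. Without untreated 1, untreated 2, IL1β 6, IL1β 7 or IL1β 8, 0 did, beside 38 to 107 genes in all.

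Downstream, 30 of 31 genes listed as dependent on IRF1 were tested. Of these 7 rose, none fell, 29 had a positive log2 fold change (47.8% of all tested genes did) and the median was 1.21. For 13 the groups did not overlap with IL1β higher, against 4.60% of all tested genes. NOS2, the inducible nitric oxide synthase, was at 0.0367, 0.222, 0.252 and 0.0996 CPM in untreated 1 to 4 and at 3.31, 19.5, 20.9 and 16.6 CPM in IL1β 5 to 8 (log2 fold change 6.61, SE 0.73, edgeR adjusted p = 0.00553). It kept its call with each library left out. CD274, the checkpoint ligand PD-L1, was at 7.59, 11.3, 4.37 and 14.7 CPM in untreated 1 to 4 and at 24.1, 55.8, 46.5 and 58.9 CPM in IL1β 5 to 8 (2.29, SE 0.40, edgeR adjusted p = 0.0332). In both genes the treated libraries were all higher, with IL1β 5 nearest to the untreated ones.

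The other 5 that rose were the death ligand TNFSF10 (11.3 ± 2.0 and 67.6 ± 30.6 CPM), the chemokine CCL5 (9.82 ± 6.72 and 67.0 ± 5.84 CPM), the guanylate-binding protein GBP4 (2.02 ± 0.338 and 16.0 ± 8.70 CPM), the peptide transporter TAP1 and the immunoproteasome subunit PSMB9. TAP1 had 93.5, 66.9, 63.2 and 99.3 CPM in untreated 1 to 4 and 163, 197, 165 and 169 CPM in IL1β 5 to 8 (1.11, SE 0.19, edgeR adjusted p = 0.0321). PSMB9 had 34.5, 30.5, 33.1 and 42.5 CPM in untreated 1 to 4 and 72.7, 64.3, 58.9 and 59.1 CPM in IL1β 5 to 8 (0.86, SE 0.17, edgeR adjusted p = 0.0489), a call lost with any 1 library left out. For TAP1 and PSMB9 the IL1β 5 library lay with the other treated ones. CCL5 lost its call without untreated 2, IL1β 6 or IL1β 8, TNFSF10 without any of these or untreated 3, and GBP4, CD274 and TAP1 with 5 to 7 of the 8 libraries left out in turn (edgeR adjusted p = 0.0510 to 0.126 where lost). GBP2 (edgeR adjusted p = 0.0721), the light chain of class I molecules B2M (1509 ± 445 and 1672 ± 424 CPM, edgeR adjusted p = 0.894) and the adhesion molecule VCAM1 (115 ± 66.6 and 473 ± 333 CPM, edgeR adjusted p = 0.282) did not pass. The count that rose was 12 without IL1β 5, where 218 of 15471 genes rose in all. It was 15 without untreated 1 as well, where 378 of 15127 did. It was 1 without untreated 2, IL1β 6 or IL1β 8, 2 without untreated 3, and 3 without IL1β 7. In those fits 38 to 68 genes rose in all.

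Of 31 antiviral interferon-stimulated genes tested, the class driven by the complex that holds IRF9, 5 rose and none fell. All 31 had a positive log2 fold change, with a median of 1.70, where 47.8% of all tested genes had a positive one. For 10 of the 31 the groups did not overlap with IL1β higher, against 4.60% of all tested genes. The 5 that rose were MX1 (2.73, SE 0.47, edgeR adjusted p = 0.0306), SAMD9L (2.25, SE 0.39, edgeR adjusted p = 0.0313), the ubiquitin-like modifier ISG15 (1.77, SE 0.32, edgeR adjusted p = 0.0361), CMPK2 (2.90, SE 0.54, edgeR adjusted p = 0.0411) and PARP14 (1.38, SE 0.26, edgeR adjusted p = 0.0484), the last named after its value was seen. MX1, a dynamin-like GTPase that restricts viruses, was at 46.8, 53.1, 34.2 and 72.1 CPM in untreated 1 to 4 and at 91.5, 486, 384 and 404 CPM in IL1β 5 to 8. IFIT1, which binds viral RNA, was at 9.79, 35.9, 39.0 and 22.1 CPM in untreated 1 to 4 and at 6.98, 291, 268 and 203 CPM in IL1β 5 to 8 (edgeR adjusted p = 0.228). In MX1 the IL1β 5 library stood just above the untreated ones, and in IFIT1 it was the lowest of all. IFIT3 (49.6 ± 17.4 and 316 ± 196 CPM) and OAS3 (79.6 ± 26.9 and 242 ± 131 CPM) were the most abundant that did not pass.

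The call count of the antiviral genes rested on single libraries. Each of the 5 that rose kept its call with IL1β 5 left out and lost it with any other library left out. Without IL1β 5, 21 of them rose, where 218 of 15471 genes rose in all, and 27 without both IL1β 5 and untreated 1, where 378 of 15127 did. Without untreated 1 alone 2 rose, and with any other single library left out none did, in fits where 107 and 38 to 122 genes rose in all, respectively. With library size as the sole scaling, which moved the median over all genes by -0.16 on the log2 scale, none rose either.

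IL1β 5 thus differed between the members and the lists. By the median over genes of log2 CPM minus the gene's mean over the 8 libraries, the antiviral genes were at -0.90, -0.64, -0.67 and -0.69 in untreated 1 to 4 and at -0.80, 1.52, 1.17 and 1.21 in IL1β 5 to 8. The genes listed as dependent on IRF1 were at -0.62, -0.60, -0.94 and -0.19 in untreated 1 to 4 and at 0.26, 0.79, 0.48 and 0.58 in IL1β 5 to 8. In the same library IRF1 (287 CPM) was the highest of all 8, IRF7 (29.8 CPM) was above all untreated libraries, and RELA (128 CPM) and NFKBIA (338 CPM) were the highest of all 8. CXCL10, a chemokine of both NF-kB and interferon control, was at 0.624, 3.10, 0.252 and 3.09 CPM in untreated 1 to 4 and at 3.31, 60.6, 58.0 and 39.7 CPM in IL1β 5 to 8. IL1β 5 was thus near the untreated libraries in the antiviral median, CXCL10, STAT2, IFNB1 and IFNL1, and with the treated ones in IRF1, IRF7, PSMB9, TAP1 and RELA. Neither list was uniform. CXCL10 is itself on the IRF1-dependent list. In others of that list IL1β 5 was below the highest untreated library, as in CXCL11 (1.10 and 2.74 CPM) and NLRC5 (21.2 and 33.7 CPM). For 10 of the 31 antiviral genes every IL1β library, IL1β 5 included, was above all untreated ones. In ISG15 IL1β 5 had 38.9 CPM against at most 28.4 CPM in untreated libraries. Genes of the list in which IL1β 5 was above the untreated libraries but another IL1β library was not were not counted. A difference seen in 1 library has no replicate, and its cause was not tested.

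**Figure D4:**
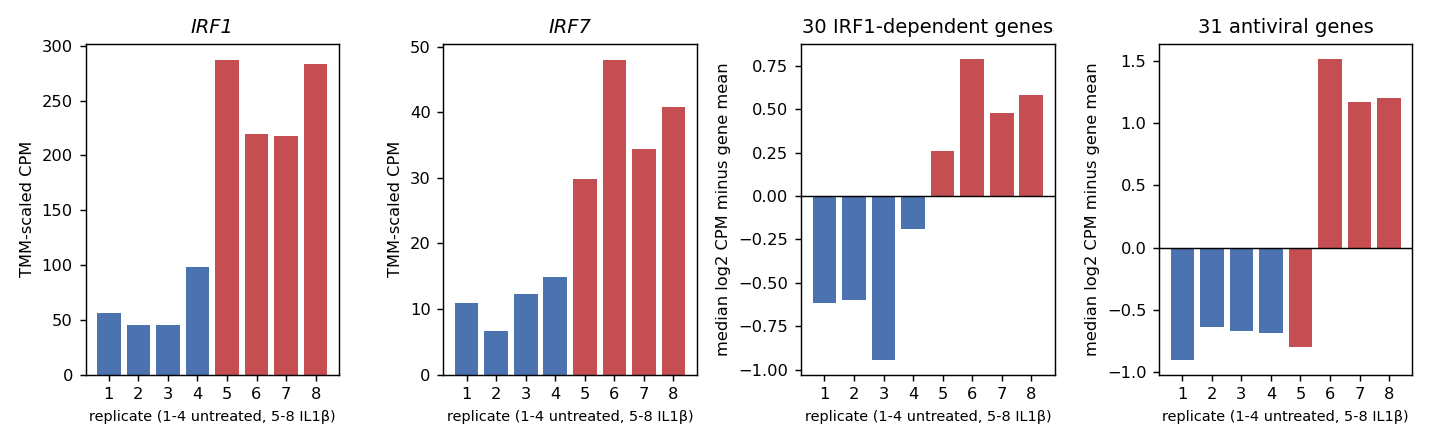
CPM of IRF1 and IRF7 and the median log2 CPM minus gene mean of 30 IRF1-dependent and 31 antiviral genes, per library (blue, untreated 1 to 4; red, IL1β 5 to 8). IL1β 5 is high in IRF1 (287 CPM) and at -0.80 in the antiviral genes, within the untreated range of -0.90 to -0.64.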

How the data were processed

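RNA was sequenced from stranded libraries of untreated and IL1β-treated A498 cells (n = 4 each). Per the labels and the submitters' processing notes, the authors trimmed the reads, used STAR 2.5.3a with hg38 for alignment, and obtained gene counts by featureCounts. The deposited values are raw counts. The version of featureCounts, its annotation, strand setting and treatment of overlapping genes were not given in the sources used here. From the table, 27 date-named rows (0.197% to 0.236% of a library) were left out, as they may stand for several genes.

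In R 4.3.3, edgeR 4.0.16 (filterByExpr, TMM, quasi-likelihood F test on the condition) was fitted to 15062 genes, with Benjamini-Hochberg adjustment over all. The standard error is the log2 fold change divided by the square root of F. Exact two-sided permutation tests used all 70 groupings of the full set of libraries, or all groupings of the libraries kept where any was left out. Log2 CPM used a prior count of 2. DESeq2 1.42.0, limma 3.58.1, other factors and filters, and left-out libraries were tried. Duplicate libraries were looked for by chi-square, which was 13.8 or more per gene for each pair. Positions and lengths are from GENCODE 44.

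The members and lists were chosen with earlier results of these data known. The lists were written from textbook knowledge, and SOCS1 and USP18 stand in 2 of them each. From each list the text names up to 4 genes that rose and 4 that fell by smallest p, the 2 most abundant that did not pass, a fixed set of pathway genes, genes that overlap a member, and the 5 nearest in pattern to IRF1 and to IRF7. C5orf56 was matched to IRF1-AS1 through RefSeq synonyms. One symbol of the IRF range and some genes of the lists are not reported here.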

Additional observations from a re-analysis of the deposited data

Results flagged for a closer look

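IRF4 in untreated 1 stood far from the other libraries of its group, at 0.147 CPM (4 counts) against 0 in the other 3. Of 20 groups checked for such a gap, 1 was marked. Where all other libraries of a group are at 0, any count in 1 library is marked by this check, so no chance rate is given. Untreated 1 is also one of the pair that stood apart on the first principal component.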

How the results depend on the processing

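No paired analysis was possible because the labels number the libraries 1 to 4 and 5 to 8 and do not say which untreated library belongs with which IL1β library, although the study's methods speak of experimental pairs. IRF1 kept its call in all 9 alternatives that keep the library set or leave out both untreated 1 and IL1β 5, and its log2 fold change ran from 1.93 to 2.37 with 1 library left out. IRF7 kept its call in the same 9, and ran from 1.59 to 1.94 with 1 library left out. IRF2 passed in DESeq2 (0.85) and without untreated 1 and IL1β 5 (0.96), and ran from 0.74 to 0.92 with 1 library left out. IRF3 ran from -0.07 to 0.30 with 1 library left out, never passing. The difference in the log2 IRF1 to IRF2 ratio ran from 1.10 to 1.56 with 1 library left out, and that of IRF7 to IRF3 was 1.90 without both libraries, where an exact test of 3 against 3 cannot go below p = 0.1. The number of genes that rose, 140, was 423 in DESeq2, 230 with no filter, 378 without both libraries and 38 to 218 with 1 left out. The number that fell, 9, was 15 with upper-quartile factors, 109 in DESeq2, 54 without both libraries and 0 to 12 with 1 left out. In DESeq2 the lists had 18 antiviral, 17 IRF1-dependent, 7 NF-kB, 5 sensor, adaptor and kinase, 4 receptor, and 4 partner genes that rose. With library size as the sole scaling 4 IRF1-dependent, 1 sensor or adaptor, 1 receptor and 0 NF-kB genes rose, beside 94 genes in all. The cause of these shifts was not tested. Counting error limits IRF4, IRF8 and IRF9.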

Other observations

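Untreated 4 was the untreated library nearest to the treated ones in several genes of this pathway. IRF1 was at 97.9 CPM there and at 44.9 to 56.0 CPM in the other 3 untreated libraries, and IRF7, at 14.8 CPM, was also the highest of its group. The NF-kB genes NFKB1 (159 CPM against 52.7 to 117 CPM) and NFKBIA (108 CPM against 26.3 to 62.0 CPM), the kinase gene IKBKE (27.9 CPM against 9.61 to 18.6 CPM) and GBP2 (48.4 CPM against 12.4 to 26.4 CPM) stood in the same order, while IFIT1 (22.1 CPM) and IRF2 (25.1 CPM) lay within the range of the other untreated libraries. The summed endothelial and fibroblast markers were also highest there, at 1183 CPM against 47.1 to 139 CPM in the other untreated libraries, and COL1A1 was at 680 CPM against 43.2 to 120 CPM. Most of that sum was COL1A1 and COL1A2 (431 CPM), while the endothelial genes PECAM1, VWF and KDR were higher in untreated 1. The part of these markers in the levels above was not tested. With untreated 4 left out, the log2 fold change of IRF1 was 2.37 (edgeR adjusted p = 0.00279).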
